A study of Homo sapiens with 9 samples.

Results

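The genes described here are Rdh10 and 8 other genes of the retinoic acid pathway, namely Aldh1a1, Aldh1a2, Aldh1a3, Crabp2, Stra6, Rara, Rarb and Rarg. All 9 were listed among the 17369 genes of the expression table. Rdh10 was selected on its measured level, which was lower in tumors grown from adapted cells, and the other 8 because they act in the same pathway. Its values against original/B6129SF1 tumors are therefore given as a description, with no test. Of the 9 genes, 6 reached 1 FPKM (fragments mapped to a gene, scaled for transcript length and library size) in at least 3 of the 9 tumors, the filter that 10263 genes passed, and Aldh1a2, Aldh1a3 and Rarb did not.

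Cells make retinoic acid from vitamin A. Retinol enters through the membrane receptor encoded by Stra6, is oxidised to retinaldehyde by the enzyme encoded by Rdh10, and retinaldehyde is then oxidised to retinoic acid by the Aldh1a enzymes. Retinoic acid is carried by Crabp proteins, acts through the nuclear receptors Rara, Rarb and Rarg paired with an Rxr partner, and is degraded by Cyp26 enzymes, while Dhrs3 turns retinaldehyde back into retinol. The pathway is known for its part in epithelial differentiation, and retinoids have been tried as redifferentiation agents in thyroid cancer.

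RNA was sequenced from orthotopic thyroid tumors of TBP3743 cells, a mouse anaplastic thyroid carcinoma line from B6129SF1 mice that carries a thyroid-specific Braf V600E allele and deletion of Trp53, so that all 3 groups share these alleles. Female mice, 6 weeks old, received 100000 cells in the left thyroid, and tumors were taken on day 14. Original/B6129SF1 tumors came from the unpassaged line in B6129SF1 hosts, adapted/B6129SF1 tumors from cells passaged through C57BL/6 mice and then placed in B6129SF1 hosts, and adapted/B6 tumors from the same passaged cells in C57BL/6 hosts, with 3 tumors a group. The adapted cells were taken at passage round 3, and the 6 adapted tumors share this source, so the tumors are replicates of hosts and not of the adaptation. Relative sequencing depth, read from the steps of the lowest values, ranged from 0.959 to 1.35 times that of original/B6129SF1 replicate 1, and absolute depth was not known.

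The line is labelled as epithelial cancer cells, and its markers were mixed. Krt8, a keratin of simple epithelia, had a mean of 315 FPKM over the 9 tumors, but Epcam did not exceed 2.49 FPKM, Cdh1 lay between 1.03 and 4.48 FPKM and Esrp1 did not exceed 0.336 FPKM in any tumor. Of the thyroid markers, the transcription factor Nkx2-1 was present at 23.5 to 44.5 FPKM, whereas Pax8 did not exceed 1.61 FPKM. Among the tumors, 2 stood apart in skeletal muscle transcripts. The 10 listed muscle genes, led by Mylpf, took 6.01% of summed FPKM in adapted/B6129SF1 replicate 3. The share was 1.1% in adapted/B6 replicate 1, and the highest in any other tumor was 0.136%. Some of the values that rest on these tumors are also given without 1 or both of them.

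Rdh10, the retinol dehydrogenase that carries out the first oxidation step, was lower in every adapted tumor than in any original/B6129SF1 tumor. Its level was 30.9, 36.9 and 24.6 FPKM in the original/B6129SF1 tumors (replicates 1, 2 and 3, the order used throughout), 12.2, 18.5 and 11.1 FPKM in the adapted/B6129SF1 tumors, and 16.0, 16.2 and 16.4 FPKM in the adapted/B6 tumors. The group means were 30.8 ± 6.12, 13.9 ± 3.97 and 16.2 ± 0.206 FPKM (SD, n = 3), so that adapted/B6129SF1 stood at 0.452 and adapted/B6 at 0.526 times the original/B6129SF1 mean. On the log2(FPKM + 1) scale, which understates the change of genes with low values, these differences were -1.10 (SE 0.19) and -0.87 (SE 0.19), and without the 2 muscle-rich tumors -0.97 and -0.86. Both comparisons use the same 3 original/B6129SF1 tumors and are not independent of each other. Between the adapted groups the levels overlapped, and adapted/B6 differed from adapted/B6129SF1 by 0.23 (SE 0.19) with an adjusted p of 0.883 in limma. In a whole tumor, fewer cells that express a gene and less RNA per cell cannot be told apart.

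The summed epithelial markers were lower, and the summed leukocyte markers higher, in the tumors where Rdh10 was low. Of the 8 epithelial genes 6 were tested, and 1, Krt8, was lower in both adapted groups, at 553, 363 and 615 FPKM in original/B6129SF1, 180, 283 and 153 FPKM in adapted/B6129SF1, and 222, 221 and 241 FPKM in adapted/B6 (limma, adjusted p = 0.0189 and 0.0346). Of all genes tested, 3.92% in adapted/B6129SF1 and 2.77% in adapted/B6 were lower at an adjusted p under 0.05. Krt18, its partner keratin, differed on the log2 scale by -0.94 (adjusted p = 0.116) and -0.93 (adjusted p = 0.131), overlapping with original/B6129SF1 in adapted/B6129SF1 and not in adapted/B6. The other 4 genes differed by -0.52 and 0.36 (Cdh1), -0.26 and 0.01 (Epcam), -0.24 and 0.00 (Krt19), and -0.19 and -0.14 (Krt7), and the median of the 6 was -0.39 in adapted/B6129SF1 and -0.07 in adapted/B6. The summed epithelial list, nearly all of it Krt8 and Krt18, gave 947, 578 and 970 FPKM in original/B6129SF1, 323, 548 and 265 FPKM in adapted/B6129SF1, and 371, 425 and 395 FPKM in adapted/B6. The 5 leukocyte genes, led by Cd52, summed to 282, 277 and 307 FPKM in original/B6129SF1, 405, 598 and 604 FPKM in adapted/B6129SF1, and 602, 335 and 660 FPKM in adapted/B6. Neither sum overlapped between the original/B6129SF1 and the adapted tumors. Cd52 was the 1 leukocyte gene with an adjusted p under 0.05, in adapted/B6129SF1 (1.12, adjusted p = 0.0491), with a like difference in adapted/B6 that did not pass (1.14, adjusted p = 0.0512). Of all genes tested, 4.37% and 3.99% were higher at that level. Without overlap with original/B6129SF1, 4 of the 5 genes were higher in adapted/B6129SF1 and 2 in adapted/B6, beside 13.6% and 14.9% of all genes tested. Of the 7 thyroid genes 2 were tested, and neither passed in limma. Against original/B6129SF1, Nkx2-1 differed by 0.04 in adapted/B6129SF1 and 0.09 in adapted/B6 (adjusted p = 0.932 and 0.859). Tg, the thyroglobulin gene, differed by -2.48 and 0.12 (adjusted p = 0.288 and 0.971). The part of these cell types in the Rdh10 level was not tested.

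**Figure D1:**
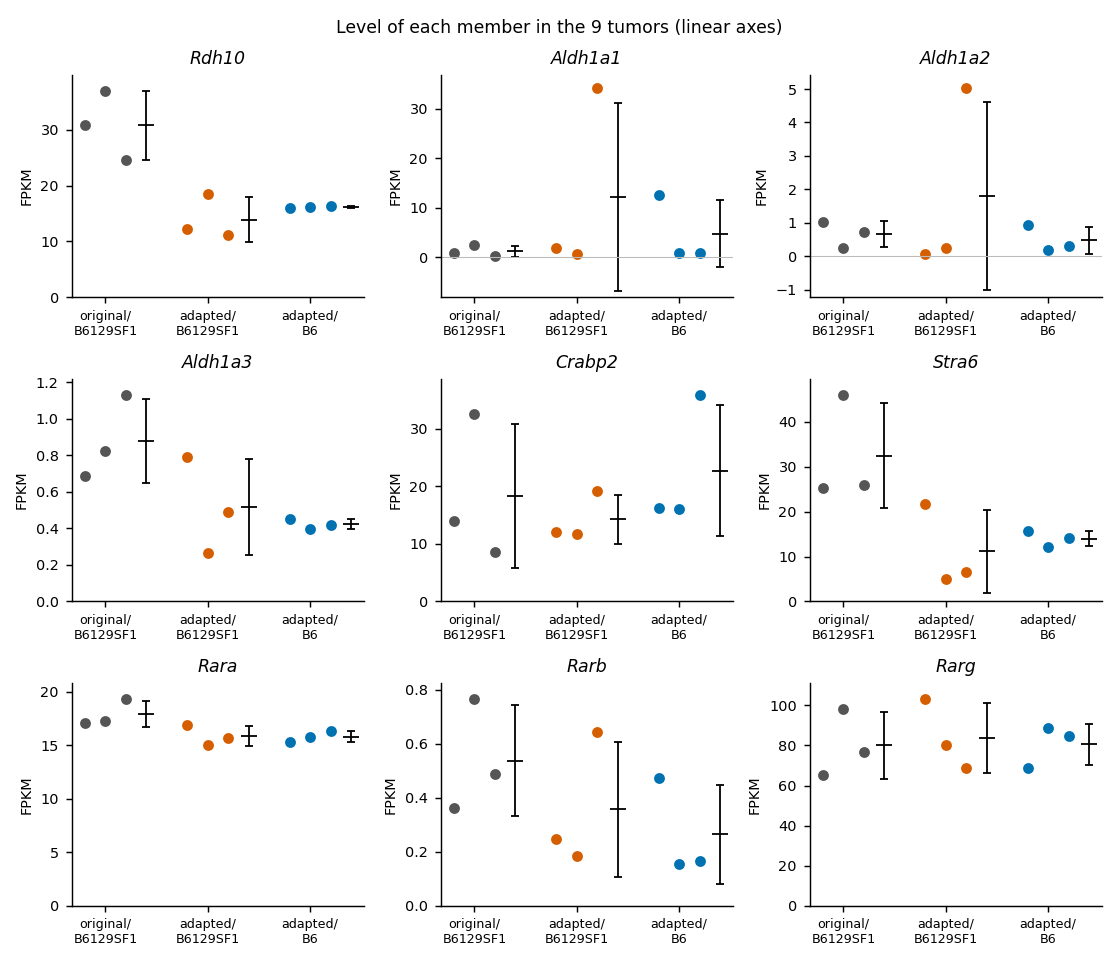
FPKM of the 9 pathway genes in each tumor, on linear axes that differ between panels, with points for single tumors and bars for the group mean ± SD (n = 3). Rdh10 lay between 24.6 and 36.9 FPKM in original/B6129SF1 tumors and at or below 18.5 FPKM in the adapted tumors, whereas Rarg overlapped between all groups and Aldh1a1 was high in single tumors, so that its SD bars reach below 0.

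None of the 5 tested genes other than Rdh10 passed the threshold for a differentially expressed gene (DEG), an adjusted p under 0.05 with a log2 fold change beyond 1 in either direction. The count was 0 of 5 in adapted/B6129SF1 against original/B6129SF1, where 3.22% of all genes tested were DEGs (2.36% higher and 0.857% lower), and 0 of 5 in adapted/B6 against original/B6129SF1, where 3.09% were (2.42% higher and 0.672% lower). Both counts were also 0 without the 2 muscle-rich tumors. In both comparisons 1 of the 5, Stra6, had an unadjusted p under 0.05 in limma, as had 26.5% and 24.4% of all genes tested. Stra6 and Rara were the 2 whose levels were lower in every adapted tumor than in any original/B6129SF1 tumor. Of all genes tested, 29.6% in adapted/B6129SF1 (13.6% higher and 15.9% lower) and 32.8% in adapted/B6 (14.9% higher and 17.9% lower) did not overlap with original/B6129SF1.

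Among the genes of retinol uptake and storage, Stra6 was lower in every adapted tumor than in any original/B6129SF1 tumor. It stood at 25.3, 45.9 and 26.0 FPKM in original/B6129SF1, 21.8, 5.03 and 6.57 FPKM in adapted/B6129SF1, and 15.6, 12.2 and 14.2 FPKM in adapted/B6. The log2 differences were -1.67 (SE 0.45, adjusted p = 0.0581) and -1.11 (SE 0.45, adjusted p = 0.177) in limma, and neither passed. When each tumor was left out in turn, the differences ran from -2.25 to -1.29 in adapted/B6129SF1 and from -1.25 to -0.83 in adapted/B6. In 1 of the 9 fits, without adapted/B6129SF1 replicate 1, the adapted tumor nearest to original/B6129SF1, Stra6 was a DEG in both comparisons (adjusted p = 0.00575 and 0.028), and it passed in neither comparison in the other 8.

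Rbp2, a cytosolic retinol-binding protein best known from the intestine, was lower in adapted/B6129SF1, at 4.59, 5.1 and 3.82 FPKM against 13.0, 7.67 and 16.1 FPKM in original/B6129SF1, a log2 difference of -1.22 (SE 0.24, adjusted p = 0.0201). In adapted/B6 it was 4.53, 5.45 and 6.36 FPKM (-0.99, adjusted p = 0.0434). No adapted tumor reached the lowest original/B6129SF1 tumor for Rbp2. Both calls were lost without the 2 muscle-rich tumors (adjusted p = 0.0608 and 0.112), the first also without original/B6129SF1 replicate 1 (0.0726), original/B6129SF1 replicate 3 (0.0712) or adapted/B6129SF1 replicate 3 (0.0524), and the second in 7 of the 9 fits without a single tumor (0.0513 to 0.127).

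Rbp7, a further binding protein of this family, was low in the C57BL/6 hosts. It was 2.7, 3.93 and 2.81 FPKM in original/B6129SF1, 1.22, 4.74 and 4.06 FPKM in adapted/B6129SF1, and 0.586, 0.675 and 0.369 FPKM in adapted/B6. No adapted/B6 tumor reached 1 FPKM, so Rbp7 passed the filter through the groups where it was high, and its differences with adapted/B6 are a description with no test. They were -1.42 (SE 0.33) on the log2 scale against original/B6129SF1 and -1.38 (SE 0.33) against adapted/B6129SF1, and the latter was -1.81 without adapted/B6129SF1 replicate 1. The levels of adapted/B6 did not overlap with either group, as for 11.7% of all genes tested in the comparison of the adapted groups (6.32% higher and 5.42% lower). Adapted/B6129SF1 differed from original/B6129SF1 by -0.04 (adjusted p = 0.958). Lrat, Rbp4 and Ttr, the genes of retinyl ester storage and of transport in blood, were below the filter.

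At the step between retinol and retinaldehyde, Dhrs3, which encodes the reductase that runs opposite to Rdh10, stood higher in the adapted tumors. It was 18.0, 29.1 and 20.2 FPKM in original/B6129SF1, 82.8, 33.3 and 39.5 FPKM in adapted/B6129SF1, and 38.2, 60.0 and 46.1 FPKM in adapted/B6, with no overlap between original/B6129SF1 and either adapted group. The log2 differences of 1.09 (SE 0.33, adjusted p = 0.0813) and 1.07 (SE 0.33, adjusted p = 0.0904) did not pass the adjusted threshold in limma. Without adapted/B6129SF1 replicate 1, the highest tumor, the first was smaller, at 0.70 (adjusted p = 0.121), and the second passed, at 1.07 (adjusted p = 0.024), in that 1 of the 9 fits without a single tumor. The level of Dhrs3 divided by that of Rdh10 was 0.582, 0.79 and 0.82 in original/B6129SF1, 6.81, 1.8 and 3.55 in adapted/B6129SF1, and 2.39, 3.71 and 2.81 in adapted/B6. The ratio was below 1 in the 3 original/B6129SF1 tumors and above 1 in the 6 adapted tumors, which is a description, since Rdh10 was chosen for its fall.

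**Figure D2:**
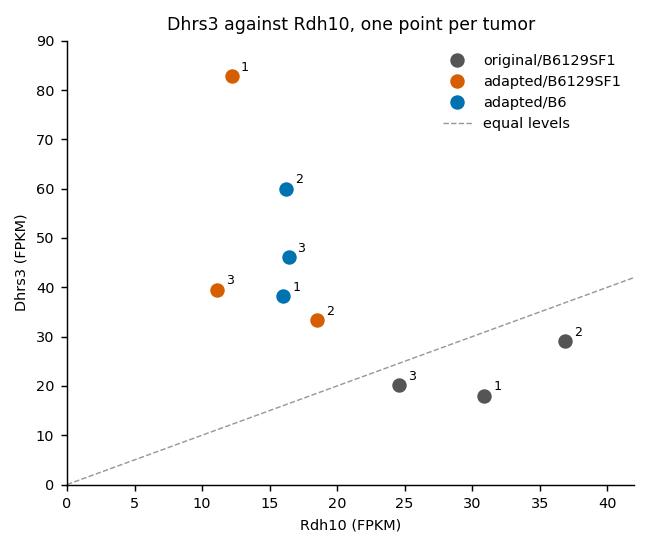
Dhrs3 (FPKM) against Rdh10 (FPKM), 1 point per tumor with its replicate number, and a dashed line where both levels are equal. The 3 original/B6129SF1 tumors lie below the line and the 6 adapted tumors above it, adapted/B6129SF1 replicate 1 farthest, at 82.8 FPKM of Dhrs3 and 12.2 FPKM of Rdh10.

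The other genes of this step did not pass in either comparison. Of the 13 listed genes of retinol oxidation, Rdh10 included, 6 passed the filter. Adh5, the broadly expressed class of alcohol dehydrogenase, was the most abundant, at 72.5, 98.5 and 69.2 FPKM in original/B6129SF1, 71.1, 81.7 and 76.6 FPKM in adapted/B6129SF1, and 68.2, 82.4 and 81.3 FPKM in adapted/B6, and its levels overlapped between all groups. Rdh7 and Sdr16c5 were listed at 0 in all tumors. Of the 6 genes of retinaldehyde reduction 5 passed the filter, and Dhrs4, Rdh11, Rdh13 and Rdh14 did not pass the test.

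The Aldh1a genes, which make retinoic acid, were low in most tumors. Aldh1a1 was 0.977, 2.49 and 0.354 FPKM in original/B6129SF1, 1.90, 0.740 and 34.2 FPKM in adapted/B6129SF1, and 12.6, 0.914 and 0.810 FPKM in adapted/B6. Its high values were in the 2 muscle-rich tumors, and the groups overlapped. The log2 differences against original/B6129SF1 were 1.42 (SE 1.15, adjusted p = 0.461) in adapted/B6129SF1 and 0.78 (SE 1.15, adjusted p = 0.725) in adapted/B6. Without adapted/B6129SF1 replicate 3 the first was 0.09 (adjusted p = 0.960), and without adapted/B6 replicate 1 the second was -0.18 (adjusted p = 0.958). Aldh1a1 and Aldh1a7 are closely related genes between which reads may be split, so that the level of each is uncertain. Aldh1a7 did not exceed 0.423 FPKM in any tumor.

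Aldh1a2 was highest in the same adapted/B6129SF1 tumor, at 1.03, 0.239 and 0.727 FPKM in original/B6129SF1, 0.0767, 0.259 and 5.03 FPKM in adapted/B6129SF1, and 0.937, 0.192 and 0.308 FPKM in adapted/B6. The exact permutation test, two-sided and with 0.1 as the smallest p that 3 against 3 tumors allow, gave p = 0.9 for adapted/B6129SF1 and p = 0.7 for adapted/B6 against original/B6129SF1. Aldh1a3 was 0.686, 0.822 and 1.13 FPKM in original/B6129SF1, 0.790, 0.266 and 0.492 FPKM in adapted/B6129SF1, and 0.452, 0.399 and 0.418 FPKM in adapted/B6. It was lower without overlap in adapted/B6 by 0.39 on the log2 scale, with the smallest exact permutation p possible (p = 0.1), and overlapped in adapted/B6129SF1 (exact permutation p = 0.2).

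Skeletal muscle and adipocyte markers were high in the tumors with high Aldh1a1. The 10 muscle genes, all of which passed the filter, summed to 107, 17.9 and 68.3 FPKM in original/B6129SF1, 639, 15.1 and 32500 FPKM in adapted/B6129SF1, and 5060, 3.33 and 226 FPKM in adapted/B6. The 6 adipocyte genes, led by Fabp4, summed to 20.5, 22.3 and 41.2 FPKM in original/B6129SF1, 39.4, 71.3 and 322 FPKM in adapted/B6129SF1, and 90.4, 15.4 and 28.9 FPKM in adapted/B6. Both sums were highest in adapted/B6129SF1 replicate 3 and next in adapted/B6 replicate 1, the tumors that were also first and second for Aldh1a1. The part of muscle or fat in the Aldh1a levels was not tested.

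**Figure D3:**
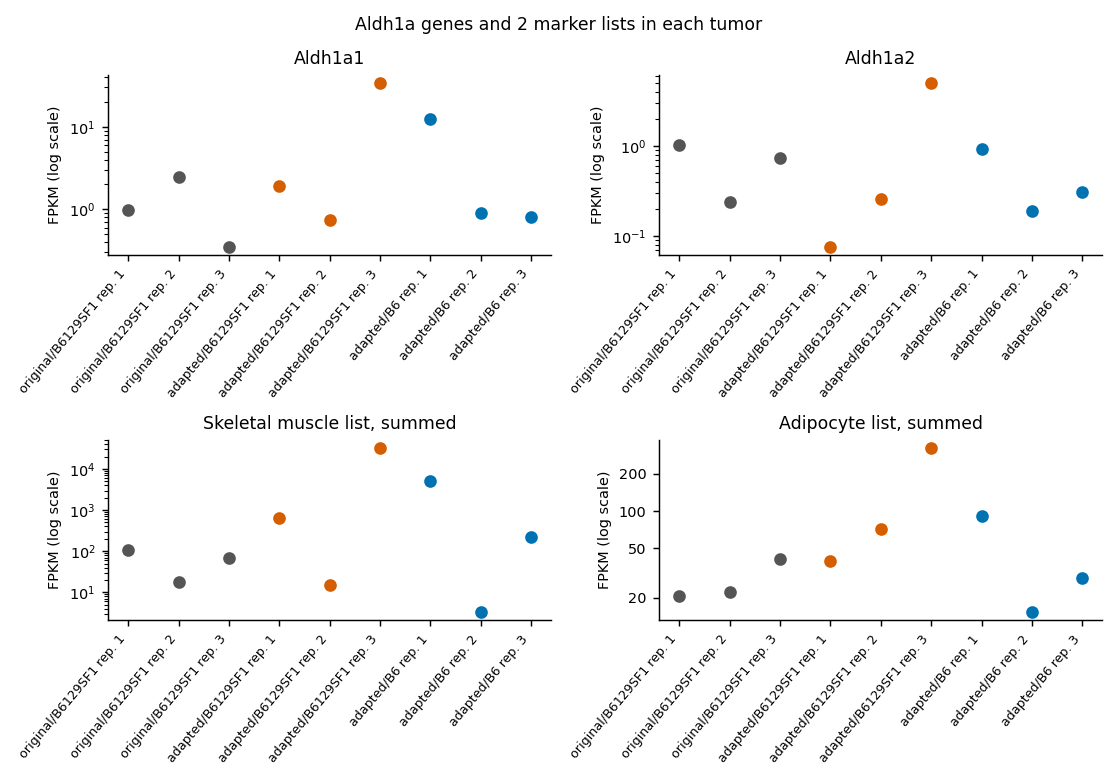
FPKM of Aldh1a1 and Aldh1a2 and the summed FPKM of the 10 skeletal muscle and 6 adipocyte genes in each tumor, on log axes. Adapted/B6129SF1 replicate 3 is highest in all 4 panels, and adapted/B6 replicate 1 is second for Aldh1a1, at 12.6 FPKM, and for both marker sums.

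The proteins that bind retinoic acid in the cell differed widely in level. Crabp2, which delivers retinoic acid to its receptors, was 13.9, 32.5 and 8.56 FPKM in original/B6129SF1, 12.0, 11.7 and 19.2 FPKM in adapted/B6129SF1, and 16.2, 16.0 and 35.8 FPKM in adapted/B6. All 3 groups overlapped, and the log2 differences of -0.17 (adjusted p = 0.844) and 0.39 (adjusted p = 0.659) were within the spread of the tumors. Its relative Crabp1 was far more abundant per length, at 1850, 1850 and 1960 FPKM in original/B6129SF1, 488, 1440 and 813 FPKM in adapted/B6129SF1, and 976, 1310 and 1150 FPKM in adapted/B6. Every adapted tumor was lower than every original/B6129SF1 tumor, but the log2 differences of -1.18 (SE 0.33, adjusted p = 0.0644) and -0.73 (SE 0.33, adjusted p = 0.218) did not pass. When each tumor was left out in turn, the first ran from -1.58, which passed (adjusted p = 0.0161), without adapted/B6129SF1 replicate 2, the adapted tumor nearest to original/B6129SF1, to -0.80 (adjusted p = 0.0964) without adapted/B6129SF1 replicate 1, and it passed in 1 of the 9 fits.

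Of the Cyp26 enzymes that degrade retinoic acid, Cyp26b1 was the 1 gene of 3 to pass the filter. It was 1.30, 1.78 and 2.99 FPKM in original/B6129SF1, 0.395, 0.0629 and 0.950 FPKM in adapted/B6129SF1, and 0.514, 0.156 and 0.180 FPKM in adapted/B6. Since the original/B6129SF1 tumors were the only ones above 1 FPKM, it passed the filter through the group where it was high and had to differ. No test is therefore given. The log2 differences were -1.05 (SE 0.28) in adapted/B6129SF1 and -1.21 (SE 0.28) in adapted/B6, and every adapted tumor was below every original/B6129SF1 tumor.

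The receptors were led by Rarg, the member that is known from skin and other epithelia. Rarg was 65.3, 98.0 and 76.9 FPKM in original/B6129SF1, 103, 80.2 and 68.7 FPKM in adapted/B6129SF1, and 69.0, 88.5 and 84.5 FPKM in adapted/B6. Its group means of 80.1 ± 16.6, 83.8 ± 17.2 and 80.7 ± 10.3 FPKM (SD, n = 3) differed by less than the spread of the tumors (adjusted p = 0.857 and 0.961 against original/B6129SF1). Rarg made up 78.9% to 85.7% of the summed FPKM of the 3 Rar genes in the 9 tumors.

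Rara was close to even, at 17.1, 17.3 and 19.3 FPKM in original/B6129SF1, 16.9, 15.0 and 15.7 FPKM in adapted/B6129SF1, and 15.3, 15.8 and 16.3 FPKM in adapted/B6. The adapted tumors were all lower, by a narrow margin, and the log2 differences of -0.16 (SE 0.09, adjusted p = 0.273) and -0.17 (SE 0.09, adjusted p = 0.287) did not pass. Rarb, itself a classic target of retinoic acid, was 0.362, 0.765 and 0.488 FPKM in original/B6129SF1, 0.246, 0.183 and 0.643 FPKM in adapted/B6129SF1, and 0.475, 0.154 and 0.164 FPKM in adapted/B6. The levels of Rarb overlapped, with exact permutation p-values of 0.4 and 0.2 against original/B6129SF1.

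Ordered by their mean in original/B6129SF1, the 9 members ran from Rarg, at 80.1 FPKM, through Stra6 at 32.4 ± 11.7, Rdh10 at 30.8 ± 6.12, Crabp2 at 18.3 ± 12.6 and Rara at 17.9 ± 1.24 FPKM (SD, n = 3) to Aldh1a1 at 1.27 ± 1.10 FPKM, with Aldh1a3, Aldh1a2 and Rarb below 1 FPKM. Stra6 and Rdh10 lay within the spread of each other, as did Crabp2 and Rara. In the adapted groups Crabp2, at 14.3 ± 4.26 and 22.7 ± 11.4 FPKM, and Rara, at 15.8 ± 0.957 and 15.8 ± 0.502 FPKM, overlapped with Rdh10.

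The wider pathway was read through 10 lists of 71 genes, of which 69 were in the table. With the members left out, 38 of 60 genes were tested. Genes without a tumor at 1 FPKM in a group compared were then left out, which were Cyp26b1 and, in adapted/B6, Rbp7. In adapted/B6129SF1 against original/B6129SF1, Tgm2 was higher and Rbp2 lower at an adjusted p under 0.05, 2 of 37, beside 7.71% of all genes kept in the same way. In adapted/B6 the same 2 genes passed in the same directions, 2 of 36, beside 6.12%. Over all genes tested the shares were 8.28% (4.37% higher and 3.92% lower) and 6.75% (3.99% higher and 2.77% lower). The median log2 difference of the 37 and 36 genes was 0.01 in both comparisons, against a median of -0.03 over all genes tested in both. At an unadjusted p under 0.05 there were 9 of the 37 and 3 of the 36, beside the 26.5% and 24.4% of all genes tested. The nuclear receptor list (5 of 7 tested) and the 11 coregulators, which repress or activate transcription with the receptors, had no gene past the threshold in limma. At the unadjusted threshold, the coregulators counted Nrip1 and Ncoa3 in adapted/B6129SF1 and 0 in adapted/B6, and the receptors 0 in both.

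Of the 21 listed target genes of retinoic acid, which include Stra6, Crabp2, Rarb, Dhrs3 and Cyp26b1, 13 were tested. With Cyp26b1 left out, Tgm2 was higher in both comparisons and the other 11 did not pass. At an unadjusted p under 0.05 there were 6 of the 12 in adapted/B6129SF1 and 3 of the 12 in adapted/B6, beside 26.5% and 24.4% of all genes tested. In adapted/B6129SF1, Nrip1, Tgm2, Dhrs3, Rarres2 and Zbtb16 were higher and Stra6 lower. In adapted/B6, Tgm2 and Dhrs3 were higher and Stra6 lower. Rarres2 differed by 1.68 and 0.40 (limma, adjusted p = 0.124 and 0.732), and Zbtb16 by 1.59 and 0.66 (adjusted p = 0.0719 and 0.426). Tgm2, a transglutaminase that crosslinks proteins, stood at 78.6, 59.1 and 83.5 FPKM in original/B6129SF1, 158, 111 and 136 FPKM in adapted/B6129SF1, and 176, 149 and 195 FPKM in adapted/B6. No adapted tumor overlapped with original/B6129SF1, and the log2 differences were 0.86 (SE 0.18, adjusted p = 0.0229) and 1.23 (SE 0.18, adjusted p = 0.00601). The first call was lost without the 2 muscle-rich tumors (adjusted p = 0.0722) and in 5 of the 9 fits without a single tumor (0.0515 to 0.0589), while the second was kept in all of them. Macrophages also express Tgm2, and the 7 macrophage genes in the table, led by C1qa, summed to 982, 1320 and 1310 FPKM in original/B6129SF1, 1670, 1400 and 1740 FPKM in adapted/B6129SF1, and 1900, 835 and 1740 FPKM in adapted/B6. Of these 7 genes, Fcgr1, an Fc receptor, was the 1 with an adjusted p under 0.05, in adapted/B6 (0.96, adjusted p = 0.0304). It was not a DEG there, and in adapted/B6129SF1 it did not pass (0.77, adjusted p = 0.0561). Of all genes tested in adapted/B6, 3.99% were higher at an adjusted p under 0.05. Without overlap with original/B6129SF1, 5 of the 7 were higher in adapted/B6129SF1 and 1, Fcgr1, in adapted/B6, beside 13.6% and 14.9% of all genes tested. The median log2 difference of the 7 was 0.52 and 0.25, and that of Mrc1 was -0.69 and -0.49 (adjusted p = 0.354 and 0.553). The part of macrophages in the Tgm2 level was not tested. Targets that respond in other tissues were near 0, with Cdx1 listed at 0 in all tumors. The median log2 difference of the 12 targets without Cyp26b1 was 0.17 in adapted/B6129SF1 and 0.35 in adapted/B6.

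**Figure D4:**
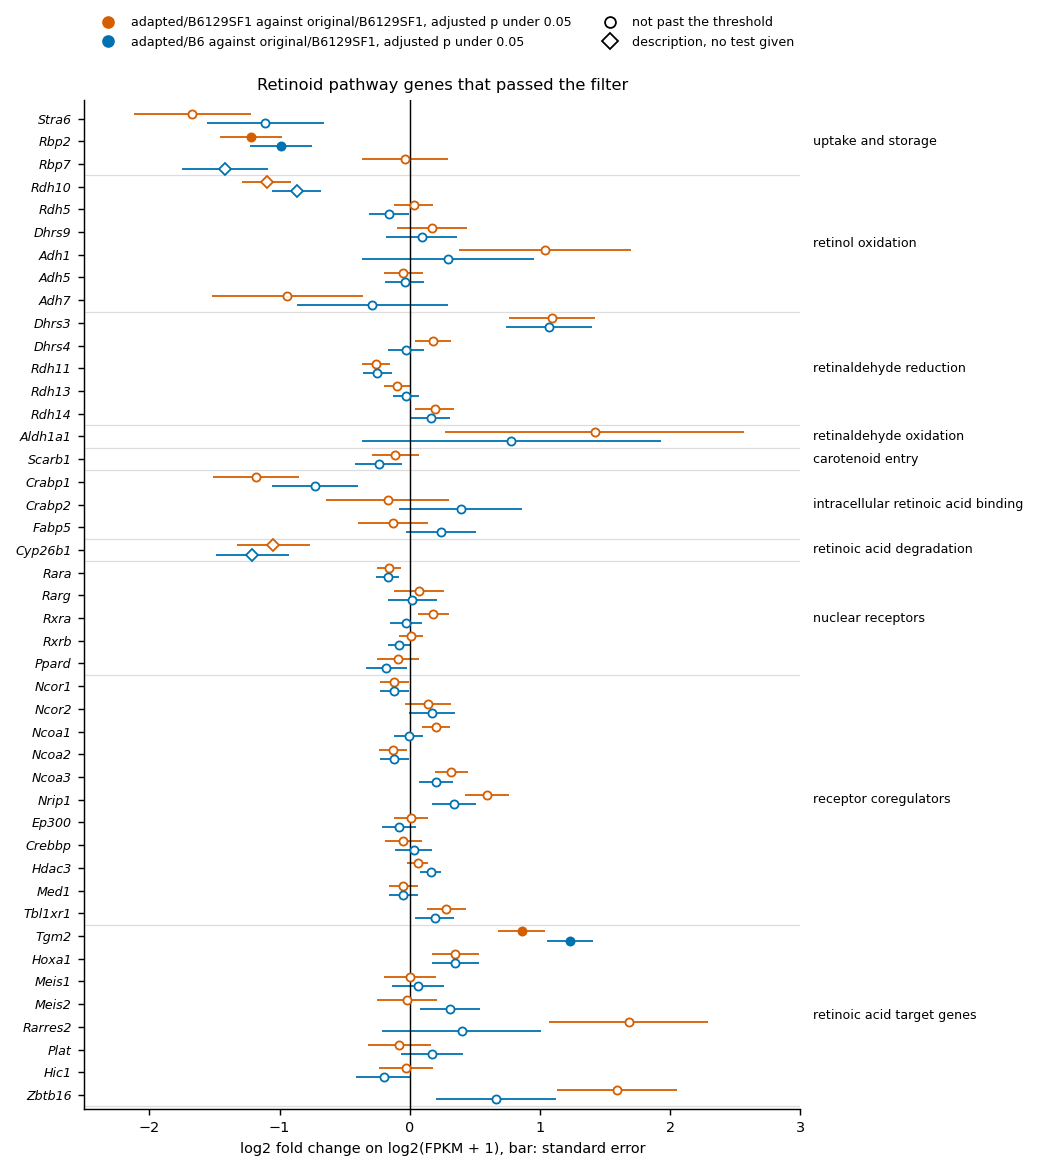
Log2 fold changes on log2(FPKM + 1), with their standard errors, of the pathway genes that passed the filter, by list, for adapted/B6129SF1 (orange) and adapted/B6 (blue) against original/B6129SF1; a gene on more than 1 list is drawn once. Filled points have an adjusted p under 0.05 (Rbp2 and Tgm2 in both comparisons), and diamonds (Rdh10, Cyp26b1 and, in adapted/B6, Rbp7) are descriptions with no test.

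The same adapted cells in C57BL/6 and in B6129SF1 hosts were compared to ask whether the host changed these levels. No member was a DEG in adapted/B6 against adapted/B6129SF1 in limma, and none of the 5 tested had an unadjusted p under 0.05, where 0.0292% of all genes tested were DEGs. The log2 differences were 0.56 for Stra6 (adjusted p = 0.882), 0.56 for Crabp2 (adjusted p = 0.883), -0.64 for Aldh1a1 (adjusted p = 0.947) and -0.04 for Rarg (adjusted p = 0.978). When each tumor was left out in turn, Stra6 ran from 0.18 to 1.14 and Crabp2 from 0.19 to 0.78. The sign turned for Aldh1a1 (-1.59 to 0.69) and Rarg (-0.18 to 0.11). For Aldh1a2, Aldh1a3 and Rarb the exact permutation p-values were 0.9, 0.7 and 0.5. Of the other 36 genes of the lists with 1 FPKM in a tumor of both groups, none was a DEG and 0 had an unadjusted p under 0.05, as 6.27% of all genes tested had. Left out of the 36 were Cyp26b1, which overlapped between these groups (-0.16), and Rbp7. Rbp7 was lower in adapted/B6 without overlap, with a log2 difference of -1.38 (SE 0.33) that is described with no test. Of all genes tested, 5.42% were lower without overlap.

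The genes whose profile over the 9 tumors was closest to that of Rdh10 were found among 8120 genes with a mean of at least 5 FPKM, by the root-mean-square difference of log2(FPKM + 1) after the mean of each gene was subtracted. Pdlim2 was closest, with a difference of 0.19, followed by Vim (0.20), Neo1 (0.21), Rab4a (0.21), Chac2 (0.21), Ramp3 (0.21), Tspan15 (0.22) and Msln (0.22). The standard for scale is the spread of Rdh10 itself, 0.52 on the same measure. Rdh10 was chosen for its fall, so the lower levels of these 8 genes in adapted tumors follow from their selection. Vim, the intermediate filament of mesenchymal cells, had group means of 5390, 2880 and 3400 FPKM in original/B6129SF1, adapted/B6129SF1 and adapted/B6, and Msln, a surface protein of mesothelium and some carcinomas, 120, 48.4 and 69.4 FPKM. The other 3 mesothelial markers stayed under 1 FPKM in all tumors. By Pearson correlation these 8 genes ranked from 24 (Vim) to 79 (Chac2) among the 8120 genes. None was among the 8 closest by that measure, so that the genes named depend on the measure of likeness.

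**Figure D5:**
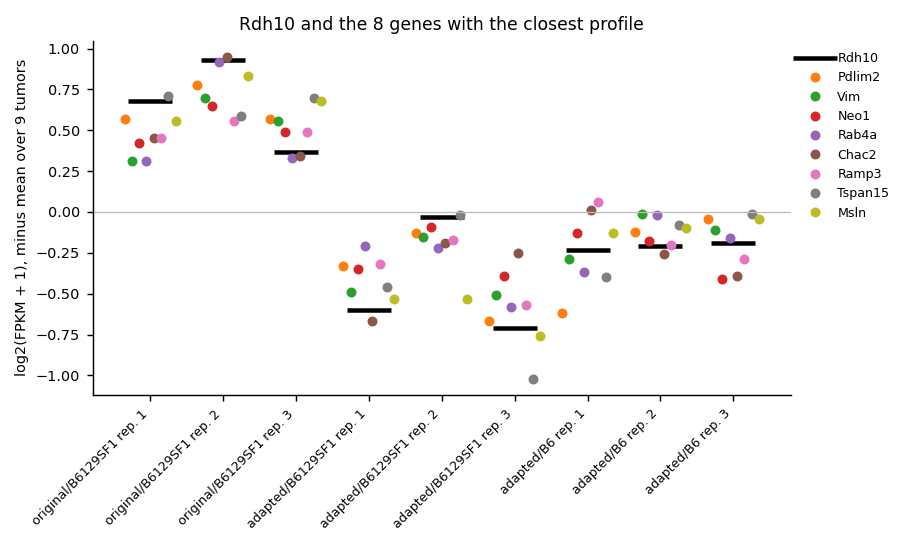
Log2(FPKM + 1) of Rdh10 (black bars) and of the 8 genes with the closest profile (points) in each tumor, after the mean of each gene over the 9 tumors was subtracted. All 9 genes lie above their mean in the 3 original/B6129SF1 tumors and, but for Chac2 and Ramp3 in adapted/B6 replicate 1, at or below it in the adapted tumors. The 8 genes were selected for likeness to Rdh10, so this shared pattern follows from the selection.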

How the data were processed

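RNA from 9 mouse tumors in 3 groups of 3 was analysed. Per the labels and the study's methods, the authors checked reads with FastQC, aligned them to mm10 with HISAT2 and deposited gene values as FPKM from Cuffnorm, normalized for transcript length and library size; the Cuffnorm version and annotation are not given in the sources used here. FPKM keep no counts, so no count test was used, and the labels name no batch. Groups came from the labels. The genes that reached 1 FPKM in 3 or more tumors were fitted as log2(FPKM + 1) in 1 limma model of 3 groups (limma 3.58.1, R 4.3.3, mean-variance trend, all 9 tumors), with Benjamini-Hochberg adjustment over all genes tested. A gene was called a DEG at an adjusted p under 0.05 where it also differed by more than 1 on the log2 scale. The fit was tested on simulated data. No test is given for a gene that reached 1 FPKM in no tumor of a group compared, since the filter then selects for a difference, a rule chosen after seeing the data. Genes under the filter had a two-sided exact permutation test (python 3.11.15). The members, gene lists and tests were chosen with earlier results of these data known. The named genes were the members, genes of the pathway and marker lists and the 8 genes most like Rdh10. The labels mark the 3 tumors of a group as biological replicates. Alternatives were another pseudocount, filters, normalizations, models, a replicate block, leaving out each tumor and, chosen after seeing the data, leaving out the 2 muscle-rich tumors. No mouse sequence or coordinate was used here. A gene of the pathway lists is not reported here and was left out of their counts.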

Additional observations from a re-analysis of the deposited data

How the results depend on the processing

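DEGs numbered 330 in adapted/B6129SF1 against original/B6129SF1, 317 in adapted/B6 against original/B6129SF1 and 3 in adapted/B6 against adapted/B6129SF1. Without a fold threshold there were 850 and 693 in the first and second comparisons, and the third gave 1 with no filter on low values and 0 with 1 FPKM required in all tumors or with only the 2 groups compared. Leaving out each tumor gave 141 to 358, 156 to 347 and 0 to 6 DEGs; the lowest counts came without original/B6129SF1 replicate 3 (141) and adapted/B6 replicate 3 (156), and without original/B6129SF1 replicate 3 the second was 177. Of the members other than Rdh10, the count of DEGs was 0 except for Stra6, which made it 1 in adapted/B6 with only the 2 groups compared, and 0 to 1 in both comparisons against original/B6129SF1 when each tumor was left out. It was 0 to 0 between the adapted groups. The replicate numbers did not pair the tumors (correlations of deviations from -0.33 to 0.03, 0.07 to 0.3 and -0.39 to 0.61); with the replicate block there were 242, 245 and 0 DEGs, no member was called, and Rbp2 no longer passed in adapted/B6 (adjusted p = 0.0824). Leaving out each tumor turned the sign of differences that had not passed the threshold or had no test: against original/B6129SF1, Aldh1a2 in adapted/B6129SF1 (-0.49 to 0.76), Crabp2 (-0.58 to 0.32 in adapted/B6129SF1, -0.02 to 0.89 in adapted/B6), Rarg (-0.09 to 0.22, -0.11 to 0.18), Rbp7 in adapted/B6129SF1 (-0.29 to 0.39) and Aldh1a1 in adapted/B6 (-0.18 to 1.28), and between the adapted groups, Aldh1a1 (-1.59 to 0.69), Aldh1a2 (-0.93 to 0.31), Aldh1a3 (-0.20 to 0.05), Rarb (-0.21 to 0.05), Rara (-0.04 to 0.04), Rarg (-0.18 to 0.11), Dhrs3 (-0.27 to 0.37) and Cyp26b1 (-0.37 to 0.06). Rdh10 was chosen for its fall, so leaving out tumors does not test its direction. Its differences ran from -1.31 to -0.97 in adapted/B6129SF1 and -1.02 to -0.73 in adapted/B6 when each tumor was left out. Of 321 single-gene fold changes under the other alternatives, 301 kept their direction and, where tested, their side of an adjusted p of 0.05, 8 no longer passed it, 3 newly passed it, 8 differences of Aldh1a3, Rarb, Cyp26b1 and Rbp7 grew with a pseudocount of 0.1, and 1 reversed: Rara between the adapted groups was 0.01 without the 2 muscle-rich tumors, against -0.00. With only the 2 groups compared, Rbp2 (adjusted p = 0.0505) and Tgm2 (0.0517) in adapted/B6129SF1 and Rbp2 (0.0584) in adapted/B6 no longer passed, and Stra6 (0.0337), Dhrs3 (0.0313) and Crabp1 (0.0383) passed in adapted/B6. With no filter on low values, Rbp2 in adapted/B6 (0.0721) no longer passed. The cause of these changes was not tested. Absolute depth is unknown, which limits what can be read from genes near or under 1 FPKM.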

Other observations

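Thyroglobulin (Tg), the hormone precursor of thyroid follicular cells, was uneven within groups, at 0.0153, 30.2 and 12.2 FPKM in original/B6129SF1, 0.0431, 0.0382 and 1.2 FPKM in adapted/B6129SF1, and 31.0, 11.3 and 0.358 FPKM in adapted/B6. The T cell list (6 genes in the table, led by Cd3g) summed to 5.23, 3.61 and 5.05 FPKM in original/B6129SF1, 5.9, 27.3 and 24.5 FPKM in adapted/B6129SF1, and 26.7, 18 and 23.1 FPKM in adapted/B6, and the dendritic cell list (8 genes, led by Itgax) to 6.09, 3.58 and 5.73, 11.3, 14.5 and 12.9, and 14.6, 13.6 and 12.5 FPKM. Clec9a, a marker of cross-presenting dendritic cells, did not reach 1 FPKM in original/B6129SF1, so no test is given for it. The fibroblast list (8 genes, led by Col1a2) summed to 588, 758 and 634, 858, 750 and 1070, and 893, 1040 and 935 FPKM in the same order of groups.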
